A study of Mus musculus with 4 samples.

Results

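Myelin is the membrane that oligodendrocytes wrap around axons, and the genes that build it are read here on 4 arrays of mouse hippocampal CA1. The set holds 9 listed genes: Mbp, Mog, Mag, Cldn11, Mobp, Cnp, Mal, Sox10 and Trf. A probe set, the group of short probes that together read a transcript, was taken as a member when the platform annotation gave it 1 symbol equal to a listed gene. This gave 15 probe sets for 8 genes, of 8252 genes with a symbol of their own on the array, and Trf was not analysed here. The genes were chosen by earlier results of these same arrays, among them low intensities of oligodendrocyte genes on the 6 hr array, so all their values are given as a description with no test.

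The samples were total RNA from CA1, the hippocampal field that sends the circuit's output. The mice were young males of the strain C57BL/6J. All were controls that had been handled and given nothing else. The arrays differ in the hour of extraction, which the labels count from the last shock given to other mice, and there is 1 array each at 1, 2, 4 and 6 hr. The sources used here do not say how many mice contributed to an array, and no value has a replicate at its own time. Below, values in time order are those at 1, 2, 4 and 6 hr. A difference between times therefore cannot be told apart from a difference between samples or arrays.

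Oligodendrocytes arise from precursor cells and, once mature, make large amounts of the mRNAs for myelin proteins. Myelin basic protein (Mbp) holds the cytoplasmic faces of the membrane together, and the myelin-associated oligodendrocyte basic protein (Mobp) lies in the same compact myelin. Mog sits on the outermost surface, Mag faces the axon, Cldn11 forms the tight junctions between the layers, Cnp is an enzyme of non-compact myelin, and Mal is a proteolipid of lipid-rich membrane. Sox10, a transcription factor of the HMG class, is needed for oligodendrocytes to mature and acts on myelin genes. In CA1 myelin lies in the alveus and among the axons of the deep layers, among other places. The amount taken can depend on the dissection, which was not tested.

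Since Sox10 is among the genes, the bases just before the start of the other members were read from the RefSeq promoter table (GRCm38.p6) and searched on both strands for 3 Sox motifs, the first ACAAAG, the second ACAATG, the third AACAAT, and for the E-box CAGCTG. Of these genes 6 were read, Cldn11, Cnp, Mag, Mal, Mobp and Mog. Each was read from 250 bases before the start, except Cnp with 220 bases, and no transcribed base is shown. For Mag the start farthest upstream was used, and its other starts are not shown. Mobp, Mag and Cnp are printed because a motif was found, and Mog and Cldn11, chosen after their values were seen, because both had none and shared their order of arrays. Mal also had none, but another order of arrays, and is not printed. Mobp, with motifs, was lowest at 6 hr as Mog and Cldn11 were through their main probe sets. Since the sequences shown were picked in this way, nothing is read from motif and order together. Capitals mark ACAAAG, or CTTTGT where it lies on the other strand.

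Mobp (chr9:120149492-120149741, plus strand): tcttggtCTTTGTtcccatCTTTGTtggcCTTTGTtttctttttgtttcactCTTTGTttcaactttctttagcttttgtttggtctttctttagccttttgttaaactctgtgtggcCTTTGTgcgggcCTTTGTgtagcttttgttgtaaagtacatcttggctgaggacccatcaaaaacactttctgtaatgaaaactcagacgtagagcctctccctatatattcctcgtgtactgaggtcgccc
Mag (chr7:30914923-30915172, minus strand): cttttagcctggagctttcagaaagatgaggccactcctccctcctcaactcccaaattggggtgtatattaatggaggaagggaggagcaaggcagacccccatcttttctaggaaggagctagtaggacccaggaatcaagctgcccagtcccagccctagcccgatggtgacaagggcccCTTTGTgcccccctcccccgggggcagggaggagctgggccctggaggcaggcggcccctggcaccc
Cnp (chr11:100574689-100574908, plus strand): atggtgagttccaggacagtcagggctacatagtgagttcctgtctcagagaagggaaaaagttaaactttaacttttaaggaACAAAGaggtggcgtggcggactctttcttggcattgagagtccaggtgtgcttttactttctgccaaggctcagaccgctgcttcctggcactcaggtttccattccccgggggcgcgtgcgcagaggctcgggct
Mog (chr17:37023399-37023648, minus strand): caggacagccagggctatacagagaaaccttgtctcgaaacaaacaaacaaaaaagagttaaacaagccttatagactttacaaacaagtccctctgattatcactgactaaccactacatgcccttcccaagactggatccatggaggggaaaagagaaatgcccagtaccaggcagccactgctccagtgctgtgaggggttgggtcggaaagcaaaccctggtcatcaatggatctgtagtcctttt
Cldn11 (chr3:31149670-31149919, plus strand): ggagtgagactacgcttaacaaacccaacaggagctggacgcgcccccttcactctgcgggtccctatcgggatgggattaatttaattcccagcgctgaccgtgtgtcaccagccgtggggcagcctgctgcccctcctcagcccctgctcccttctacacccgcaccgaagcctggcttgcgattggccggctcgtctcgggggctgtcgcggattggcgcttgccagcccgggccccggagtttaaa

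The Mobp sequence held the motif ACAAAG 6 times, each on the opposite strand, between 243 and 120 bases before the start. That of Mag held it 1 time, 67 bases before the start, and that of Cnp 1 time, 137 bases before it. The sequences of Mog, Cldn11 and Mal held none of the 4 motifs. Of all 32851 promoters in the table, 16.5% held ACAAAG in the 250 bases before the start, 10.7% ACAATG, 9.42% AACAAT and 13.0% CAGCTG. A match is only a run of letters, and its absence says nothing about binding.

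Values are deposited intensities on a linear scale. For differences they were raised to a floor of 54.6 and put on the log2 scale, and a probe set entered counts when its mean log2 value lay above an intensity of 114. Of the 15 probe sets 13 passed, for 7 genes. Just inside lay the dimmer Cldn11 probe set, with a mean of 7.04 on the log2 scale against a limit of 6.83, and just outside the dimmer Sox10 probe set, at 6.29. The probe set of highest mean stands for its gene below and is called the brightest. Levels are not compared between probe sets, since probes differ in how brightly they bind.

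**Figure D1:**
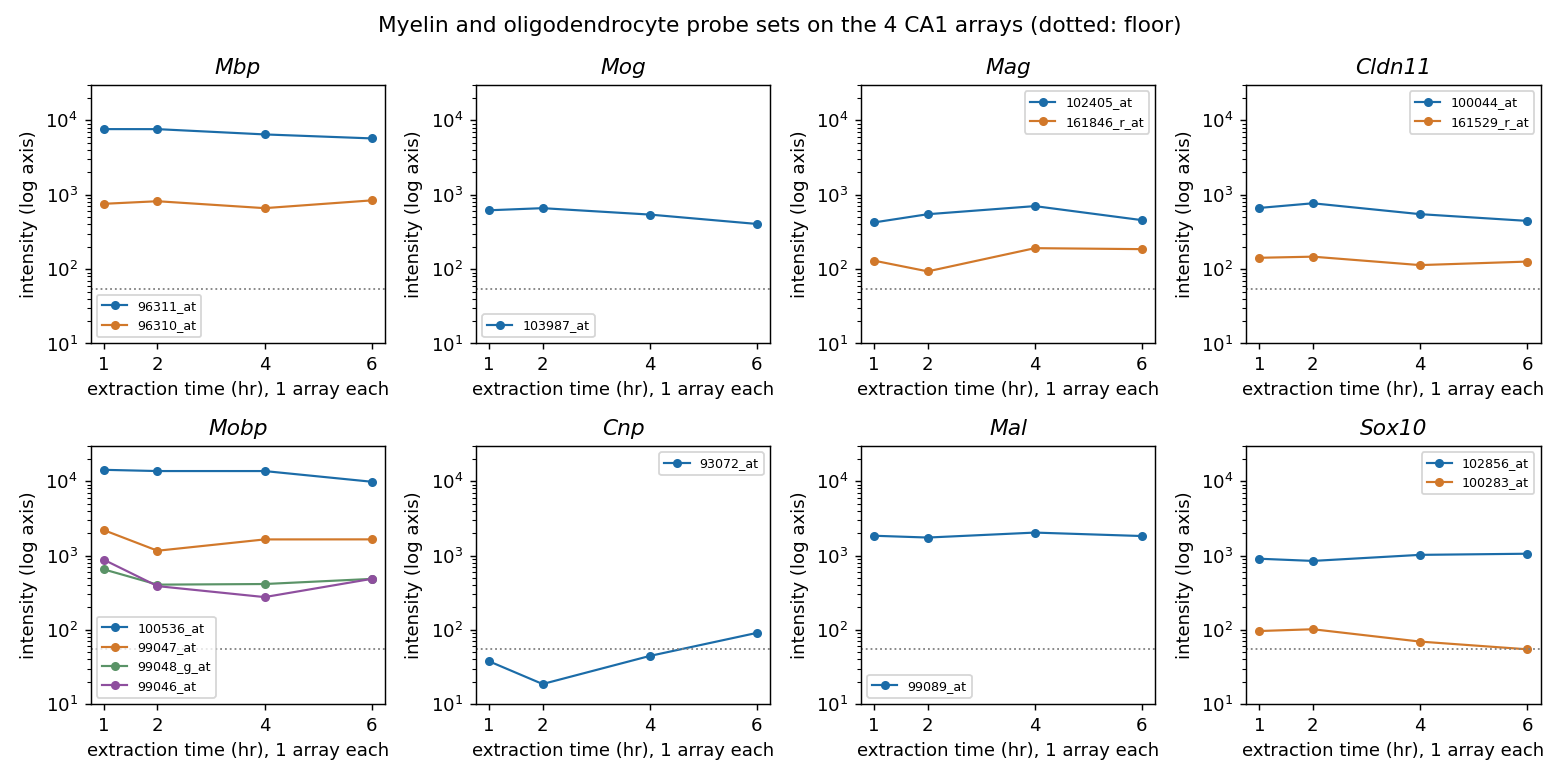
Intensity (log axis) of each of the 15 member probe sets on the arrays at 1, 2, 4 and 6 hr, with 1 panel per gene and 1 point per array. The dotted line is the floor at 54.6, under which Cnp lies at 1, 2 and 4 hr; the brightest probe sets of Mbp, Mog, Cldn11 and Mobp have their lowest point at 6 hr, and their other probe sets do not.

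Mbp and Mobp encode basic proteins of compact myelin. The main Mbp probe set (96311_at) read 7638.3, 7630.7, 6481.7 and 5728.6 in time order. The earlier pair of arrays was nearly equal, and the later pair was lower. The 6 hr value lay 1.26-fold below the mean of the other 3 arrays, a log2 difference of -0.34. The second Mbp probe set (96310_at) read 756.0, 818.8, 660.8 and 840.6 in time order. It was highest where the first was lowest, with a log2 difference of 0.18 at 6 hr.

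The main Mobp probe set (100536_at) read 14207.2, 13675.8, 13670.8 and 9821.4 in time order. The first 3 arrays spanned 0.06 log2 units, and the 6 hr array lay 0.48 below the nearest of them, or 1.41-fold below their mean. Such a gap, wider than the range of the other 3 arrays, was found for 2 of the 13 member probe sets, this and that of Mog, and for 6.52% of all 7453 probe sets that passed. The other Mobp probe sets did not have it. Probe set 99047_at read 2192.2, 1159.7, 1646.3 and 1648.9 in time order, and 99048_g_at read 650.4, 405.9, 413.7 and 484.7. These 2 were designed from the same sequence record, so they are not separate readings of the gene, and they ranked the arrays alike, lowest at 2 hr and highest at 1 hr. Probe set 99046_at read 875.8, 387.7, 276.0 and 485.5 in time order, a 3.17-fold span. All 4 Mobp probe sets were highest at 1 hr, which 25.8% of all probe sets were, and their 6 hr differences ran from -0.50 for the first to 0.10 for the last.

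Mog, the surface protein of the outermost myelin layer, has a single probe set (103987_at). It read 618.7, 660.6, 541.6 and 405.1 in time order. The 6 hr array was the lowest, 1.49-fold below the mean of the other 3, the largest such fold among the 13 probe sets that passed. The main Cldn11 probe set (100044_at) read 665.2, 768.3, 548.9 and 445.5 in time order. It ranked the arrays as Mog did, with 2 hr highest and 6 hr lowest, and lay 1.47-fold lower at 6 hr. That order was found for 4.0% of all probe sets, and the order of the main Mbp and Mobp probe sets, lowest at 6 hr and highest at 1 hr with 4 hr second lowest, for 3.37%. The latter order rests on near-ties, between 1 and 2 hr for Mbp and between 2 and 4 hr for Mobp. The dimmer Cldn11 probe set (161529_r_at) read 142.1, 147.1, 113.3 and 126.3, lowest at 4 hr and also highest at 2 hr, with a log2 difference of -0.08 at 6 hr.

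Mag, an adhesion protein on the axonal side of myelin, was ordered differently. Its main probe set (102405_at) read 424.8, 547.7, 703.9 and 455.8 in time order. The highest value was at 4 hr and the lowest at 1 hr, so the 6 hr value, at a log2 difference of -0.26, lay inside the range of the other arrays. Without the 4 hr array that difference was -0.08, and without the 1 hr array -0.45. This is the value just inside the 1.2-fold limit used below, and the nearest outside is that of the dimmer Cldn11 probe set at 1.06-fold. The second Mag probe set (161846_r_at) read 129.9, 93.3, 191.4 and 185.7 in time order. It was also highest at 4 hr, but its 6 hr value lay 1.40-fold above the mean of the other arrays.

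Mal was the steadiest of the genes. Its probe set (99089_at) read 1844.1, 1745.0, 2034.4 and 1828.4 in time order, a span of 1.17-fold with a log2 difference of -0.03 at 6 hr. Cnp, a marker enzyme of oligodendrocytes, was at or near the floor through its single probe set (93072_at), with 37.8, 18.7, 44.6 and 91.1 in time order. Only the 6 hr value lay above the floor, so the first 3 values have no order, and the probe set did not enter the counts.

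Sox10, the regulator, was read by 2 probe sets that went opposite ways. The brighter (102856_at) read 905.3, 846.0, 1020.6 and 1056.9 in time order, with the 6 hr array highest and 1.15-fold above the mean of the others. The dimmer (100283_at) read 96.5, 102.0, 69.6 and 54.8 in time order, the last close to the floor. It ranked the arrays as Mog and Cldn11 did, but did not pass the filter. The brighter probe set thus put the 2 later arrays above the 2 earlier ones, and the main probe sets of Mbp, Mog and Cldn11 put them below.

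**Figure D2:**
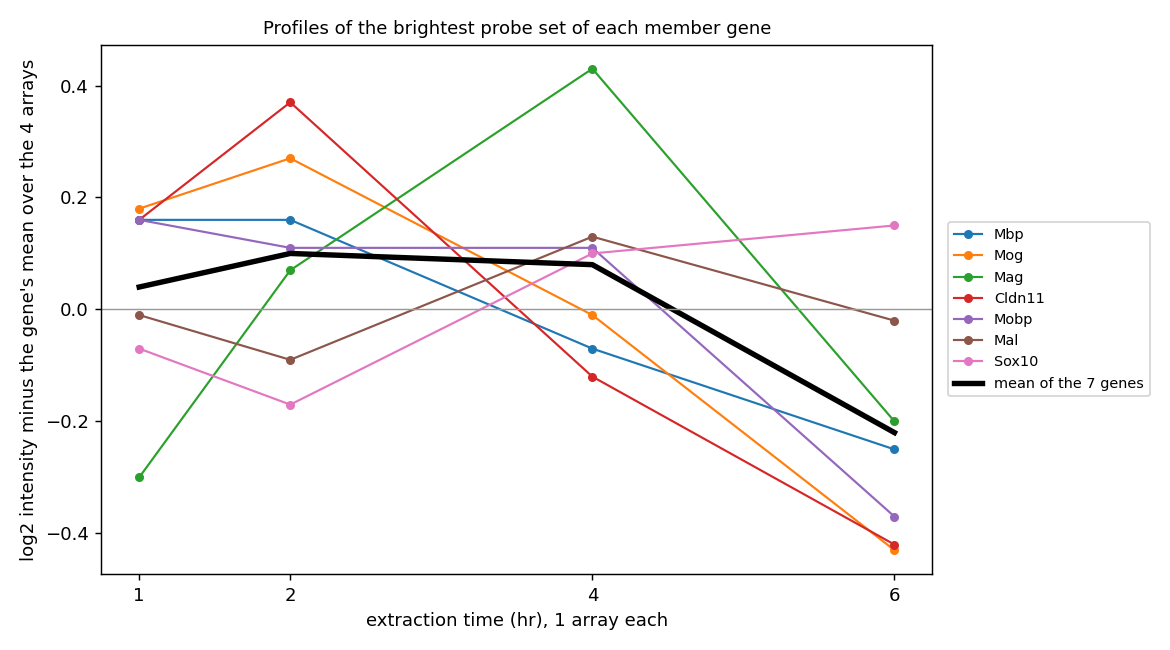
Log2 intensity of the brightest probe set of each of the 7 member genes that passed, minus that gene's mean over the 4 arrays, against extraction time in hr, with 1 array per time; the black line is the mean of the 7 genes. Mbp, Mog, Cldn11 and Mobp are lowest at 6 hr, Mag peaks at 4 hr, Mal stays near 0 and Sox10 is highest at 6 hr.

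Set together through their brightest probe sets, 4 of 7 genes were lowest at 6 hr, against 22.4% of 5680 genes, and 5 of 7 lay at least 1.2-fold below the mean of the other arrays, against 19.8%. The median log2 difference at 6 hr was -0.34, beside 0.014 over all genes. These are the values known when the genes were listed, and nothing is read from the shares. The mean profile of the 7 genes stood at 0.04, 0.10, 0.08 and -0.22 log2 units in time order around their own means. In the bulk tissue fewer oligodendrocytes, less myelin mRNA per cell and a difference of dissection, sample or array cannot be told apart.

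The shape depended on the probe set. Over all 13 probe sets that passed, 4 were lowest at 6 hr (30.8%, against 22.3% of all 7453), 5 at 2 hr, 3 at 4 hr and 1 at 1 hr, where 29.0%, 24.3% and 24.2% of all probe sets had their minimum at 2, 4 and 1 hr. The maximum lay at 1 hr for 5 of the 13 (25.8% of all probe sets), at 2 hr for 3 (24.4%), at 4 hr for 3 (26.5%) and at 6 hr for 2 (23.2%). Of the 13 probe sets, 4 had 6 hr lowest and 4 hr second lowest, an arrangement of 7.38% of all probe sets. Of the 1665 among all probe sets that were lowest at 6 hr, 550 had 4 hr second lowest, as did all 4 such member probe sets. For Mobp this order rests on a near-tie, 13670.8 at 4 hr and 13675.8 at 2 hr. A 6 hr value at least 1.2-fold below the others was found for 5 of 13 (38.5%, against 20.4%), and at least 1.2-fold above for 1 of 13, against 24.9%. None of the 13 reached 1.5-fold below, which 7.53% of all probe sets did. At 6 hr 7 of 13 lay below the mean of the other arrays, as did 47.7% of all probe sets, and the median difference over the 13 was -0.03 log2 units, beside 0.018 over all probe sets. The 5 low values all came from the brightest probe set of a gene. Of the 6 other probe sets that passed, 0 were lowest at 6 hr and 0 lay 1.2-fold below, with a median difference of 0.06.

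Bright probe sets vary less between arrays, so they were also set beside others of their level. Among probe sets above the 75th percentile of mean level, an intensity of 999, the median range over the 4 arrays was 0.41 log2 units, against 0.64 over all probe sets that passed. The members above it were 4, the main Mbp and Mobp probe sets, 99047_at of Mobp and that of Mal. Of these 2 were lowest at 6 hr and the same 2, of Mbp and Mobp, lay at least 1.2-fold lower there, where 23.0% and 12.3% of all such bright probe sets did. Over the 13 member probe sets the range over the arrays ran from 0.22 to 1.67 log2 units with a median of 0.68.

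Disagreement between probe sets of a gene was common on these arrays. All probe sets shared their lowest array in 27.5% of the 903 genes with 2 or more that passed, and in 0 of the 4 members with 2 or more, Mbp, Mobp, Cldn11 and Mag. Among all such genes 139 had a brightest probe set at least 1.2-fold lower at 6 hr. Another of their probe sets was 1.2-fold lower too in 53 of them, or 38.1%, and in 0 of the 4 members. All other probe sets lay below the mean of the other arrays in 54.0% of the 139 genes, and in 1 of the 4 members, Cldn11.

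**Figure D3:**
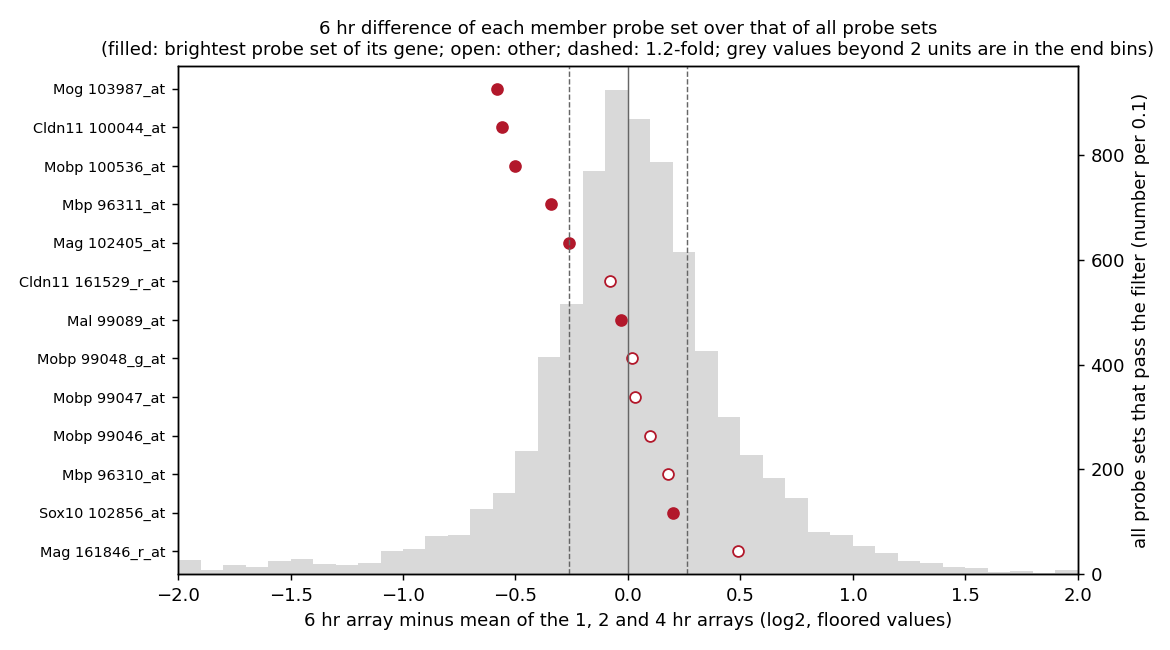
Log2 difference of the 6 hr array from the mean of the 1, 2 and 4 hr arrays (horizontal axis) for each of the 13 member probe sets that passed the filter, with filled points for the brightest probe set of a gene and open points for the others; the grey bars, on the right axis, count all 7453 probe sets. The 5 points at or beyond the lower 1.2-fold line are all filled, and the open points run from -0.08 to 0.49.

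Other genes of myelin and of the oligodendrocyte lineage were read through their brightest probe sets from lists chosen with earlier results of these data known. Of 20 other genes of myelin structure and upkeep that passed, 16 lay below the mean of the other arrays at 6 hr, where 48.2% of all genes did. Their shifts were small, with a median of -0.10 log2 units, 4 of 20 genes at least 1.2-fold below and 5 of 20 lowest at 6 hr, near the 19.8% and 22.4% of all genes. Gsn, an actin-severing protein abundant in oligodendrocytes, read 485.7, 1263.3, 919.4 and 367.4 in time order, and Cryab, a small heat shock protein, had a log2 difference of -0.31, and of -0.09 through its second probe set. Cntnap1, an axonal protein beside the node of Ranvier, lay 0.91 above through a probe set under the floor at 2 hr, and Cdkn1c 0.21 above. Neither was highest at 6 hr. Cntnap1 read 239.8 at 4 hr and 229.4 at 6 hr, and Cdkn1c read 188.8, 79.8, 181.6 and 161.8 in time order.

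Myelin lipid enzymes had 5 of 12 genes below the other arrays at 6 hr, against the same 48.2%, and a median of 0.05 log2 units. Elovl6, a fatty acid elongase, read 735.9, 1113.9, 582.2 and 346.4 in time order, while its second probe set differed by -0.11. Cers2, a ceramide synthase for very long chains, lay 1.31-fold below, but was lowest at 4 hr, with 147.7 there and 160.9 at 6 hr. The difference was 0.50 both for Elovl1, another elongase, and for Pex7, a peroxisomal import receptor. Pex7 was highest at 2 hr, with 308.6 there and 283.0 at 6 hr. Precursor and lineage genes split, with 10 of 17 below (48.2% of all genes), 7 at least 1.2-fold below (19.8%), 4 at least 1.2-fold above (23.7%) and a median of -0.01. Qk, an RNA-binding protein needed for myelination, read 1380.1, 1558.3, 1029.8 and 612.9 in time order, and its second probe set differed by -0.18. Nkx2-2, a lineage transcription factor, read 146.1, 223.9, 208.9 and 102.1. Vcan, a proteoglycan of precursors, lay 0.95 log2 units above at 6 hr, with 43.7 at 1 hr under the floor. It was highest at 4 hr, with 323.1 there and 255.4 at 6 hr. Sox4 lay 0.39 above, with a difference of -0.19 for its second probe set.

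Markers of other cells that a CA1 dissection can hold differed at 6 hr as well, and whether they bear on the myelin values was not tested. Endothelial and mural markers had a median of -0.33 log2 units, with 5 of 10 lowest at 6 hr, against 22.4% of all genes, and their summed intensity at 6 hr was 0.926 times the mean of the other arrays. That of the 7 members was 0.767 times, from sums of 26303.6, 25874.1, 25001.9 and 19741.7 in time order. Over the other lists it ran from 0.579 for choroid plexus and ependyma markers, with a high sum at 4 hr, to 1.16 for blood markers. Meningeal and fibroblast markers had 0.837 and the other myelin structure genes 0.87. Such sums follow the probe sets that bind most brightly, for the members the main ones of Mobp and Mbp. They are no measure of a list's genes in equal parts. Astrocyte markers had a median of 0.12 with 0 of 14 lowest at 6 hr, and microglia markers 0.13 with 0 of 11, against the same 22.4%. These are the brightest probe sets, and other probe sets of the astrocyte markers ran from -1.94 for Glul to 0.70 for Gjb6. Pyramidal and inhibitory neuron markers had medians of -0.02 and -0.07, with 5 of 15 and 3 of 12 lowest at 6 hr. Choroid plexus and ependyma markers had 0.17 over 5 genes, blood markers 0.27 over 3 and meningeal and fibroblast markers 0.07 over 6. With 1 array at each time no difference between lists can be tested. RNA integrity was read from control probe sets at both ends of a transcript. The ratio of 3' to 5' intensity was 3.44, 3.20, 3.24 and 2.99 in time order for Actb and 4.84, 7.56, 6.25 and 4.89 for Gapdh, so the 6 hr array was lowest in the former and between the others in the latter. The median intensity of an array lay between 173 and 204.

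**Figure D4:**
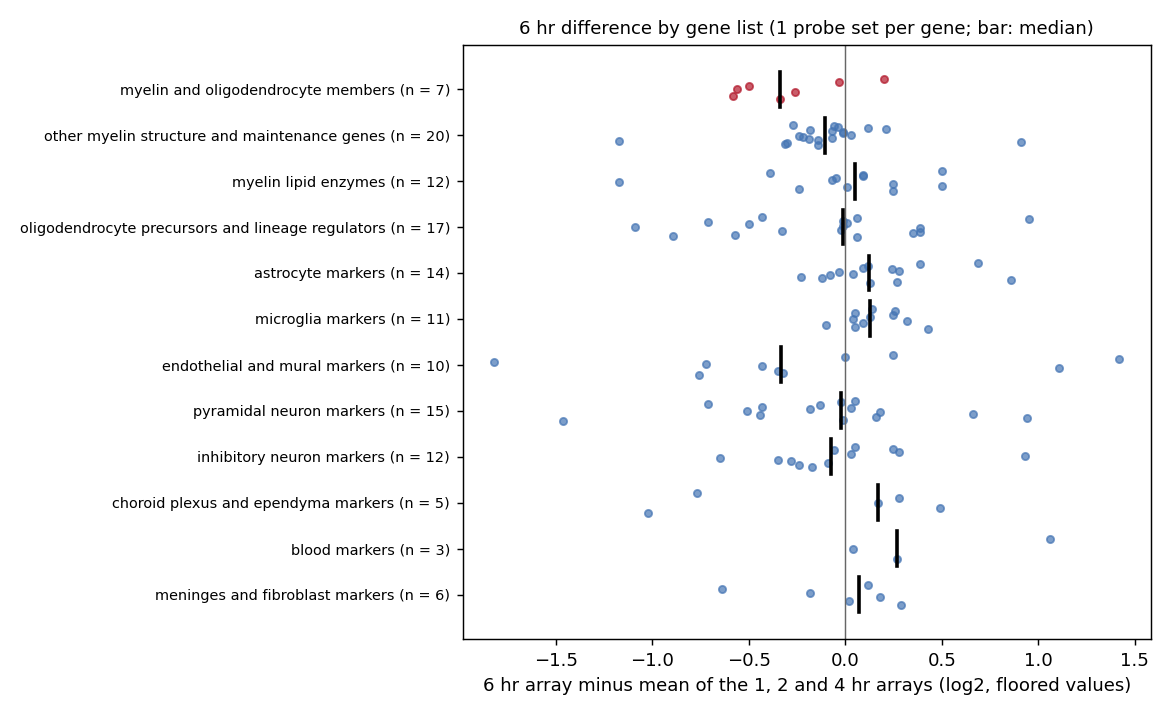
Log2 difference of the 6 hr array from the mean of the other 3 arrays (horizontal axis) for every gene that passed in each list, through its brightest probe set, with a bar at the list's median. The members (red) have a median of -0.34 and the endothelial and mural markers one of -0.33, while astrocyte and microglia markers lie around 0.12 and 0.13.

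The probe sets most like the mean profile of the 7 genes were found by the root mean square distance between log2 profiles centred on their own means, over the 4 arrays. The 10 nearest genes outside the set were Add1, Rpp21, Atp5d, Qdpr, Tfcp2, Dnajb1, Tuba1c, Myl12b, Nop10 and Cox7a2l, at distances of 0.007 to 0.029 log2 units, where the median over 6710 probe sets was 0.280. Add1, a membrane skeleton protein, read 4885.8, 5049.0, 4990.0 and 4083.7 in time order, and Qdpr, dihydropteridine reductase, read 4462.8, 4756.4, 4704.5 and 3712.0. Both held level over 3 arrays and were lowest at 6 hr, a shape that follows from being picked as nearest to the mean profile. Atp5d had 4 other probe sets, of which 3 passed, at distances of 0.142 to 0.399. The members themselves lay farther out, the nearest being the main Mobp probe set at rank 283 of 6710 (0.098) and the main Mbp probe set at rank 346 (0.104), while Mag through its main probe set was at rank 2783 (0.244).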

How the data were processed

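RNA of 4 control CA1 samples was measured on 1 single-channel array each. The deposited intensity values, 1 for each of 12488 probe sets, are linear and above 0, and their trimmed means (2% off each end) were 500 on each array, a reading from the values, so the arrays had been scaled before deposit. The sources used here do not say how the authors summarised probes. A shift shared by most genes cannot be seen after such scaling. No detection calls were used. The small number of arrays limits the precision.

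Symbols came from the platform's annotation table: 10855 had 1 symbol, 396 several and 1237 none. All 15 member probe sets matched the RefSeq gene of that symbol. Values under the 25th percentile (54.6) were raised to it, log2 was taken, the 66 control probe sets were left out, and the 7453 probe sets with a mean above the 40th percentile were used. The brightest probe set stood for a gene. With 1 array at each time and members listed with earlier results of these data known, no test was run. The members and all gene lists were chosen with those results known. Apart from the members, the text names the 10 genes of nearest profile. In the lists of myelin structure, myelin lipid and lineage genes it names the 2 genes with the highest and the 2 with the lowest difference at 6 hr. Of the marker lists only some such genes are named. Vwf, the other vessel genes that passed and Gjb6 are named outside that rule. Scaling, floor, filter, fold, probe set choice and each earlier array were varied. Calculations used Python 3.11.15, numpy 2.4.6 and pandas 2.3.3, and were tested on simulated data.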

Additional observations from a re-analysis of the deposited data

How the results depend on the processing

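The low 6 hr values of the brightest probe sets of Mbp, Mog, Mag, Cldn11 and Mobp kept their direction under each scaling and each omitted earlier array. The floors and filters tried left these differences unchanged, so they are no check on them. The genes were listed with low 6 hr values known, and the 6 hr array was in every comparison. The size of the differences changed most with the choice of probe sets and, for Mag, with the arrays used. The Mag difference was -0.45 without the 1 hr array, -0.26 without the 2 hr array and -0.08 without the 4 hr array. With the mean of all probe sets of a gene, the median difference of the member genes at 6 hr was -0.08 in place of -0.34 log2 units, 2 in place of 4 of the 7 genes were lowest at 6 hr, the Mag difference turned to 0.11, and those of Mbp and Mobp were -0.08 and -0.09. For such means the share of all genes lowest at 6 hr was not computed. At 1.5-fold in place of 1.2-fold, 0 in place of 5 probe sets lay below, against 7.53% of all probe sets. Quantile normalization and a common median moved the Mobp difference to -0.45 and -0.53. Leaving out the 1, 2 or 4 hr array gave a median difference of -0.45 to -0.30, 4 to 5 genes and 5 of 13 probe sets lowest at 6 hr, and 4 to 5 probe sets past 1.2-fold. With 3 arrays left, 30.5%, 33.3% and 31.1% of all probe sets were lowest at 6 hr without the 1, 2 and 4 hr array. In the same order, 21.7%, 22.8% and 21.6% of all probe sets lay at least 1.2-fold below. Plain probe sets alone, a choice added after seeing the data, gave 4 of 10 lowest, beside 22.3% of all probe sets, plain or not. Of the 10 nearest genes 6 were kept under quantile normalization and 0 with no filter, where Cnp entered the mean profile and dim probe sets were ranked too; the cause was not tested. No paired analysis was possible because each time has 1 array.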

Other observations

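Transthyretin, the main secreted protein of the choroid plexus, stood apart on the 4 hr array. The probe set of its gene, Ttr, read 140.3, 140.3, 3216.8 and 196.2 in time order. Other choroid plexus and ependyma genes did not share that value: Kl read 54.8, 370.0, 266.1 and 247.0 in time order, Foxj1 662.1, 305.2, 464.3 and 553.0, and Aqp1 317.3, 157.7, 118.3 and 105.8. Mag was the only member with its main probe set and another probe set both highest on the 4 hr array.

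Of the 10 vessel genes that passed, Cldn5 and Acta2 are given first, as those with the lowest 6 hr differences. Being lowest at 6 hr therefore follows from that choice. Both had the order of Mog and Cldn11, which 4.0% of all probe sets had. Through their brightest probe sets Pecam1, Flt1 and Vwf were also lowest at 6 hr, in other orders. Slc2a1, Rgs5, Eng, Kdr and Tagln were lowest on other arrays. Cldn5, the endothelial relative of Cldn11, read 620.9, 638.5, 394.0 and 318.0 in time order, highest at 2 hr and lowest at 6 hr. Acta2, a smooth muscle actin, read 201.3, 233.2 and 152.1 and was under the floor at 6 hr, while Tagln, another smooth muscle gene, was under the floor at 1 hr and read 133.4, 164.8 and 283.8 later. Vwf, an endothelial clotting factor, read 236.4, 223.5, 199.6 and 133.3, with a log2 difference of 0.00 at 6 hr through its second probe set. Kdr, an endothelial growth factor receptor, read 122.5, 135.5, 115.3 and 267.3, highest at 6 hr. Ptgds, a prostaglandin synthase of meninges and oligodendrocytes, read 6508.7, 9834.3, 7256.1 and 4978.7, and its other 2 probe sets differed by -0.38 and -0.44 log2 units at 6 hr.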
